A study of Homo sapiens with 12 samples.

Results

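The hypoxia factor genes HIF1A, EPAS1 and ARNT, their regulators VHL, EGLN1, EGLN2 and EGLN3, and the carbonic anhydrase genes CA12 and CA9 were followed through the m6A peak lists of K1 cells, an established papillary thyroid cancer cell line. These 9 genes were chosen by name, with their peak positions, lengths, within-list ranks and presence in the lists already known, so these values are given as a description and no test was run on them. Of the 9 genes, 8 had a listed peak in at least 1 library, out of 7623 such genes in all, and their peaks merged into 10 of 12995 regions. The cells had been transfected with si-NC, a control siRNA, or with si-FTO, which targets the m6A demethylase FTO, and the 2 groups share the same cell line. Each group had 3 m6A IP libraries with 3 matched input libraries. The sample titles give all 3 control libraries as si-NC followed by a number, which is read here as the replicate. MeRIP-seq pulls down fragmented RNA with an m6A antibody, and places where the IP reads exceed those of the input are called as peaks.

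FTO was knocked down by siRNA in a single cell line. The study lists 2 siRNAs against FTO, and the sources used here do not assign them to libraries. They are shown because they define the comparison, read 5′ to 3′ as the study's supplementary table writes them, and FTO lies on chromosome 16.
si-FTO-1: tcaccaaggagactgctattt
si-FTO-2: ctagggttttgcttccagaatt
The FTO mRNA itself had a listed peak in all 6 lists, which does not measure its level, so the knockdown was not checked here. The lists held 8429, 8458 and 8999 peaks for replicates 1, 2 and 3 of si-NC, and 7921, 8454 and 8240 for those of si-FTO. Peak numbering ran further in every control library, up to 70469, 68972 and 98175 for replicates 1, 2 and 3. After knockdown it ran up to 57034, 56265 and 56372 for replicates 1, 2 and 3. Whether this difference bears on which genes were listed in 1 group alone was not tested. The read depth is unknown. Of 8 thyroid marker genes, the transcription factor gene FOXE1 had a peak in all 6 lists and HHEX in 1 si-NC and 3 si-FTO lists, and the other 6, among them PAX8, TG and TSHR, had no listed peak. Of 6 epithelial markers, 2 had a listed peak, the keratin genes KRT8 in all 6 lists and KRT7 in si-FTO replicate 1 alone. Of 9 immune, endothelial and stromal markers, CD14 and COL1A1 were in all 6 lists and LUM was in 3 si-FTO and no si-NC lists, and the part of other cells or of culture state in the results was not tested. Whether the libraries are separate cultures is not stated, so the spread between them may be technical.

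Hypoxia-inducible factors are dimers of an oxygen-labile alpha subunit, encoded by HIF1A or EPAS1 (HIF-2 alpha), and the stable beta subunit encoded by ARNT. When oxygen is present, the prolyl hydroxylases encoded by EGLN1, EGLN2 and EGLN3 hydroxylate the alpha subunits, and the VHL protein, the substrate receptor of a ubiquitin ligase, marks them for degradation. The dimers bind a short DNA element in genes for glucose uptake, glycolysis, angiogenesis and pH control, among them CA9, which encodes a cell surface carbonic anhydrase, and several EGLN genes feed back on the pathway in the same way. The m6A mark on an mRNA is written by the METTL3 and METTL14 complex, removed by FTO or ALKBH5, and read by proteins that change the stability or translation of the transcript.

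The peak lists divided these genes, with EPAS1, VHL and CA12 listed in si-NC cells alone and ARNT in si-FTO cells alone. EPAS1, VHL and CA12 had a peak in all 3 si-NC lists but not in any si-FTO list, a pattern shown by 2.75% of all genes with a peak. ARNT had a peak in all 3 si-FTO lists and in no si-NC list, the pattern of 2.28% of genes. EGLN1 was in all 6 lists, as were 49% of genes. HIF1A and EGLN2 were each in 1 list of each group, EGLN3 was in 1 si-NC list, and CA9 had no listed peak. The lists of si-NC replicates 1, 2 and 3 held 4, 6 and 5 of the 9 genes, and those of si-FTO held 2, 2 and 4. The rule that chose the genes used this pattern, so the counts are not evidence of it. A gene is not listed when its enrichment misses the calling threshold or its mRNA is too low to be called, and these cannot be told apart without read counts.

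**Figure D1:**
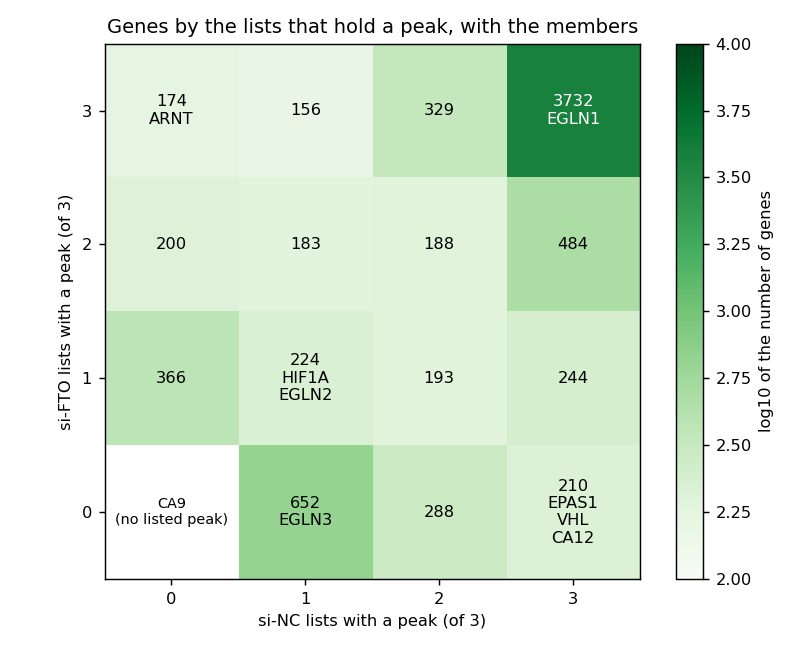
Number of genes by the number of si-NC lists (x axis) and si-FTO lists (y axis) that hold a peak, with the color on a log10 scale and the 9 genes written in their cells. EPAS1, VHL and CA12 stand among the 210 genes listed in 3 si-NC and no si-FTO lists, ARNT among 174 genes of the opposite corner, and EGLN1 among 3732 genes in all 6 lists.

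The alpha subunit genes HIF1A and EPAS1 were listed in different ways. HIF1A had a single 434 bp interval, positions 62207473 to 62207906 of chromosome 14 in hg19, under transcript NM_001530. It was listed in si-NC replicate 3 and si-FTO replicate 3, at the identical position. Its fold enrichment of IP over input, a ratio by the authors for each peak within its own list, was 12.07 in si-NC replicate 3 and 12.5 in si-FTO replicate 3. Within these lists it stood at percentile 85.0 and 84.8 of fold enrichment, where the percentile is the share of peaks of the list with a lower value. HIF1A was thus the highest ranking of the genes by fold enrichment, and it was absent from the other 4 lists. Its score, which is 10 times the negative log10 of the p-value, was 3100 in both lists, a value shared by 1031 peaks in si-NC replicate 3 and 1026 in si-FTO replicate 3. This value stood at percentile 88.1 in the former and 87.2 in the latter. Of the 1730 merged regions with a peak at least as high in score percentile as the lower of these, 83.9% were in all 6 lists and 4.22% were in 2 lists or fewer, as the HIF1A region was. No peak under another gene name lay within 5000 bp of it in any list.

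EPAS1 had a peak in every si-NC list, but at a pair of sites 79137 bp apart. The first site, on chromosome 2 from 46524541 to 46525076, was listed in si-NC replicates 1 and 3, and the second, from 46603678 to 46603892, in si-NC replicate 2. All were assigned to NM_001430. The first interval was 536 bp long in both lists, with fold enrichments of 6.2 and 5.88 at percentile 37.2 and 34.3 of those lists. The second was 215 bp long, so that 4.63% of the peaks in its list were shorter, with a fold enrichment of 5.12 at percentile 21.4. By score the EPAS1 peaks stood higher, at percentile 66.7, 61.6 and 71.1 in si-NC replicates 1, 2 and 3. Counted by site, EPAS1 therefore did not have the pattern of 3 lists against 0 that it has when all its peaks are counted, and the first site had 2 against 0.

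ARNT, which encodes the beta subunit common to both dimers, was the gene listed after FTO knockdown alone. The 3 si-FTO lists gave it 1 and the same 226 bp interval, positions 150849019 to 150849244 of chromosome 1, under NM_001668. The fold enrichment was 7.22, 10.35 and 4.44 in si-FTO replicates 1, 2 and 3, at percentile 53.6, 77.7 and 13.8 of those lists. The 3 libraries thus placed the same interval high, near the middle and low in their lists. By score it stood lower, at percentile 21.1, 29.4 and 8.46, with scores of 118.81, 160.97 and 70.69 against a smallest listed score of 50. The authors' FDR of the peak was 60.16%, 62.46% and 72.03%, above the medians of these lists of 41.15%, 47.22% and 46.07%. High FDR values were not particular to ARNT. In the si-NC lists the FDR was 35.19% to 80.21% for EPAS1, 35.15% to 81.97% for VHL and 27.22% to 80.77% for CA12. The medians of the si-NC lists were 50.42%, 99.58% and 47.45%. EGLN1 had an FDR of at least 53.83% in si-NC and at most 31.78% in si-FTO. Averaged over its 3 lists, ARNT ranked 124 of the 174 genes of its pattern by score percentile, with 19.6 against a median of 25.3 over these genes. One region of ARNT had the pattern of 3 si-FTO lists against 0, as did 2.92% of all regions.

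**Figure D2:**
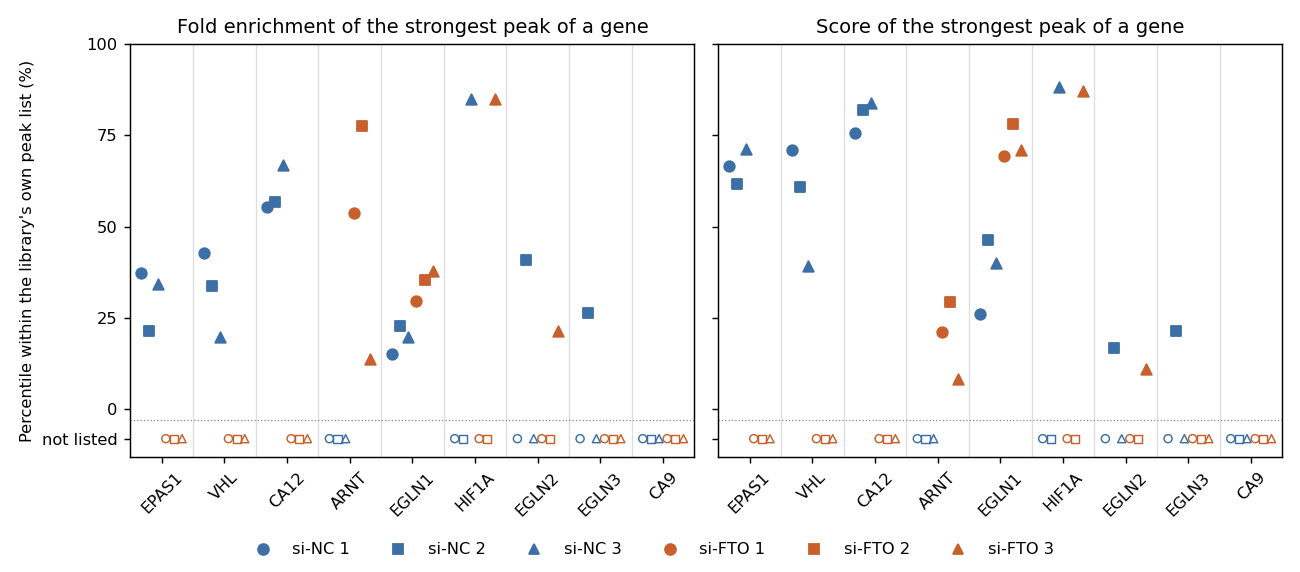
Percentile within the library's own peak list (y axis, in percent) of the strongest peak of each gene by fold enrichment (left) and by score (right), with 1 point per library and open symbols below the dotted line for libraries in which the gene was not listed. ARNT in the si-FTO libraries spans percentile 13.8 to 77.7 of fold enrichment, and the 3 si-FTO points of EGLN1 lie above its 3 si-NC points in both panels.

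VHL, the substrate receptor that binds hydroxylated alpha subunits, had the same interval in the 3 si-NC lists and no peak in si-FTO. It lay on chromosome 3 from 10183330 to 10183871, 542 bp long, assigned to NM_000551. The fold enrichment was 6.61, 5.94 and 4.96 in si-NC replicates 1, 2 and 3, at percentile 42.8, 33.9 and 19.8. The scores were 1009.85, 594.61 and 225.58, at percentile 71.0, 60.8 and 39.1 of their lists. VHL was lowest in si-NC replicate 3 by each of these measures, the library with the longest list. Averaged over the 3 lists, VHL ranked 35 of the 210 genes of its pattern by score percentile, at 57.0, and EPAS1 ranked 24 at 66.5, where the median over these genes was 31.1.

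The prolyl hydroxylase gene EGLN1 was listed in all 6 libraries, and its peak ranked higher in each si-FTO list than in any si-NC list. The peak began at 231556744 on chromosome 1 in all 6 lists and ended between 231558375 and 231558473, so it was 1632 to 1730 bp long, under NM_022051. Its fold enrichment was 4.73, 5.21 and 4.96 in si-NC replicates 1, 2 and 3, at percentile 15.1, 22.8 and 19.8. In si-FTO replicates 1, 2 and 3 it was 5.49, 5.86 and 6.03, at percentile 29.7, 35.5 and 37.9. The groups did not overlap in this percentile, which was higher in every si-FTO list for 14.2% of the 3732 genes in all 6 lists and lower in every si-FTO list for 16.2%. Over all genes, the strongest peak of a gene in each list was used for this and for the score percentile below. The scores of EGLN1 were 146.78, 322.39 and 234.85 without and 942.72, 1526.42 and 1047.03 with FTO knockdown. In score percentile this was 26.1, 46.5 and 40.1 in si-NC against 69.3, 78.1 and 71.0 in si-FTO, again without overlap. This percentile was higher in every si-FTO list for 12.1% of the genes in all 6 lists and lower in every si-FTO list for 30.2%. The interval lengths of EGLN1 did overlap between the groups, at 1632 to 1730 bp in si-NC and 1662 to 1700 bp in si-FTO. Scores and folds of different lists are not on a common scale, so ranks are compared.

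EGLN2 and EGLN3, the other prolyl hydroxylase genes, were listed rarely and with low scores. EGLN2 had a peak on chromosome 19 in si-NC replicate 2, from 41305450, and in si-FTO replicate 3, from 41305778, both ending at 41307320 and assigned to ENST00000593726. Its score stood at percentile 16.8 in the si-NC list and 11.0 in the si-FTO list. A peak of the neighboring gene RAB4B lay 2601 bp from it, from 41302475 to 41302849, in all 6 lists. EGLN3 had a peak in si-NC replicate 2 alone, on chromosome 14 from 34418456 to 34420287, assigned to ENST00000547327, with a fold enrichment of 5.44 and a score at percentile 21.5. EGLN2 was the one gene of the 8 with a peak of another name within 5000 bp.

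CA12 had the highest mean score percentile of the 4 genes in all 3 lists of 1 group and in none of the other. It encodes a carbonic anhydrase of the cell surface, which interconverts carbon dioxide and bicarbonate. In all 3 si-NC lists it had the identical interval on chromosome 15 from 63615730 to 63618556, 2827 bp long, assigned to NM_001218. This length stood at percentile 92.8, 93.4 and 93.7 of the lists. The fold enrichment was 7.62, 7.71 and 8.66 in si-NC replicates 1, 2 and 3, at percentile 55.4, 56.7 and 66.8. The scores were 1296.12, 1924.99 and 2190.89, at percentile 75.5, 82.0 and 83.9, so that the 3 libraries placed this interval close together. CA12 ranked 12 of the 210 genes of its pattern by mean score percentile, at 80.5, while no si-FTO list held any CA12 peak. A second CA12 interval, 475 bp long and 58105 bp from the first by its start, was listed in si-NC replicate 1 alone, from 63673835, with a score at percentile 4.60. CA9, the other cell surface enzyme chosen here, had no listed peak in any library.

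**Figure D3:**
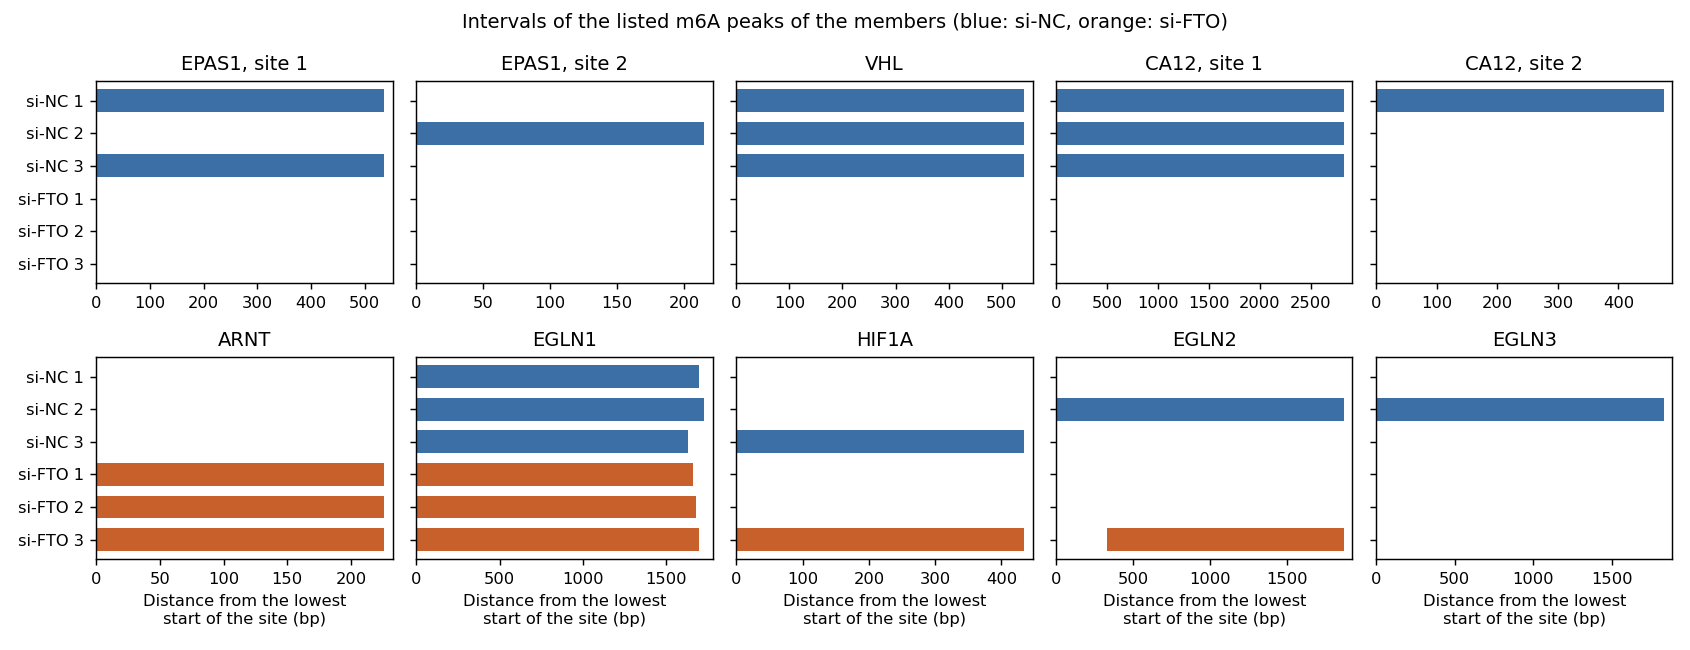
Listed peak intervals of the 8 genes, 1 panel per merged region, with the distance from the lowest start of the region in bp on the x axis and 1 row per library. The VHL, ARNT and first CA12 intervals have the same ends in all 3 libraries of a group, while the EGLN1 intervals share their start in all 6 libraries and differ at their other end.

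Counted by region, CA12 and VHL had 1 region each in the 3 si-NC lists alone, as did 3.2% of the 12995 regions. EGLN1 had a region in all 6 lists, as did 36.5%. Intervals with the same ends in every list were common, at 63.5% of the 416 regions listed in all si-NC libraries alone, 65.3% of the 380 listed in all si-FTO libraries alone and 68.1% of the 4737 in all 6 lists. Identical ends in VHL, CA12 and ARNT were therefore shared by most regions. The lists give no strand, so a peak could come from a transcript that overlaps on the other strand.

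The genes most like these in pattern were found by the mean absolute difference in fold enrichment percentile of the strongest peak over the 6 lists. A gene that was not listed counted as 0. For VHL they were KCNE5, with a mean difference of 0.942 percentile points, and ANKRD20A2 with 2.15. For CA12 they were ASPSCR1 with 1.04 and RIBC2 with 1.53, and for EPAS1 MOAP1 with 2.37 and GLUD2 with 2.48. The nearest to ARNT were farther away, NIM1K at 5.64 and VPS8 at 5.95, the latter not listed in si-FTO replicate 3. ANKRD20A2 and GLUD2 belong to families with near-identical copies, between which reads can be split, so these matches are uncertain.

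Other genes that act on the hypoxia factors were in all 6 lists about as often as genes in general. The list of these regulators holds 29 names, among them older and newer names of the same gene, and 15 had a peak. None was in all lists of 1 group alone, where 2.75% of all genes were in all si-NC lists alone and 2.28% in all si-FTO lists alone. In all 6 lists were 8 of the 15 (53.3%), against 49% of all genes: the coactivator genes EP300, CREBBP, NCOA1 and NCOA2, the elongin C gene TCEB1, whose product joins VHL to its ligase, the chaperone gene HSP90AA1, the kinase gene MTOR, and CITED2, whose product competes for the coactivators. These genes were named after their values were seen, as was USP33, a deubiquitinase gene in 1 si-NC and 3 si-FTO lists. The partners CUL2, RBX1 and TCEB2 of the VHL ligase had no listed peak. The libraries of si-NC listed 12, 10 and 11 of the 15 genes and those of si-FTO 13, 14 and 11, which overlap. In percent this was 80.0, 66.7 and 73.3 in si-NC, beside 74.0, 73.8 and 78.1 of all genes. In si-FTO it was 86.7, 93.3 and 73.3, beside 69.0, 73.3 and 71.6 of all genes. Of the 15, 5 were in more si-FTO lists, 1 in more si-NC lists and 9 in equal numbers. Of all 7623 genes these were 1408, 2071 and 4144, and no test was run on this list. The ranks that follow are those of the strongest peak of a gene in each list, and sites were not matched between lists. Of the 8 regulators in all 6 lists, TCEB1, CREBBP and MTOR had a lower percentile of fold enrichment in every si-FTO than in any si-NC list, and 0 had a higher one, where 16.2% of the genes in all 6 lists were lower and 14.2% higher. MTOR, whose kinase raises HIF-1 alpha synthesis, stood at percentile 52.1, 77.9 and 70.2 of fold enrichment in the control lists and 24.9, 22.6 and 29.9 in the knockdown lists.

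Target genes of the hypoxia factors were listed more often in si-NC libraries. Of 76 names on the list, among them older and newer names of the same gene, 39 had a peak in any library. The si-NC libraries held 28, 31 and 34 of the 39 genes, and the si-FTO libraries 23, 24 and 22, so that the groups did not overlap. In percent this was 71.8, 79.5 and 87.2 for the controls against 59.0, 61.5 and 56.4 after knockdown. Over all genes with a peak the groups did not overlap either, with a smaller gap, at 74.0%, 73.8% and 78.1% for the controls against 69.0%, 73.3% and 71.6% after knockdown. Of the 39 genes, 19 were in more si-NC than si-FTO lists, 4 in more si-FTO lists and 16 in equal numbers, against 2071, 1408 and 4144 of all 7623 genes. No test was run on this list, since it was drawn up with earlier results of these data known.

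STC2, which encodes the secreted glycoprotein stanniocalcin 2, was the one target gene listed in all 3 si-NC libraries alone, and none had the opposite pattern. This is 2.56% of the 39 genes, close to the 2.75% of all genes, and 2.28% of all genes had the opposite pattern. By fold enrichment its strongest peak was at percentile 79.7, 45.9 and 69.3 in si-NC replicates 1, 2 and 3. With at least 2 of 3 si-NC lists against no si-FTO list, the target genes numbered 7, or 17.9% of the 39, where 6.53% of all genes with a peak had this pattern. The other 6, named after their values were seen, were ALDOA, which encodes the glycolytic enzyme aldolase A, SLC16A3, a lactate transporter gene, GYS1 and PGM1 of glycogen metabolism, the lipoprotein receptor gene VLDLR and the nuclear receptor gene RORA. SLC16A3 stood at percentile 92.5 and 91.9 in si-NC replicates 1 and 3 and was listed in no other library. No target gene had at least 2 of 3 si-FTO lists against no si-NC list, where 4.91% of all genes did.

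Of the 16 target genes in all 6 lists, 4 had a lower percentile of fold enrichment in every si-FTO than in any si-NC list and 1 a higher one. The strongest peak of a gene in each list was used here too, and its site was not matched between lists. SLC2A1, which encodes the glucose transporter GLUT1, stood at 69.6, 69.9 and 83.7 for the controls against 49.9, 56.6 and 60.4 after knockdown. ANGPTL4, PLOD1 and STC1 were also lower, and MET, the gene of a receptor tyrosine kinase, was higher. PLOD1 was near the floor of every list, at 3.01, 2.59 and 1.47 for the controls against 0.151, 1.29 and 0.995 after knockdown. In number, 4 of 16 lower and 1 of 16 higher stand beside 604 and 529 of the 3732 genes in all 6 lists. These genes were named after their values were seen.

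**Figure D4:**
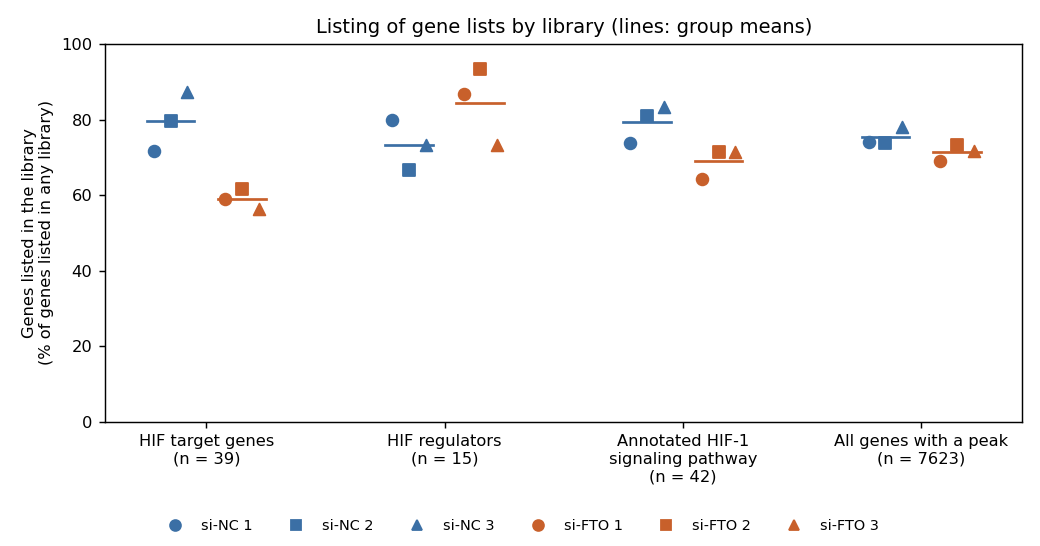
Percent of the genes of a list that have a peak in each library (y axis), of those listed in any library, with 1 point per library and a line at the mean of each group. For the 39 target genes the si-NC points lie at 71.8% to 87.2% and the si-FTO points at 56.4% to 61.5%, while for the 15 regulators the groups overlap.

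The pathway annotation that the lists carry names 42 genes with a peak under HIF-1 signaling, and it was chosen after values were seen. Of these, VHL and the apoptosis inhibitor gene BCL2 were in the 3 si-NC lists alone (4.76%), and ARNT and the angiopoietin gene ANGPT1 had the opposite pattern (4.76%). Of all 2388 genes with a pathway annotation, 2.85% and 2.68% had these patterns. VHL and ARNT belong to the genes chosen at the outset with their listing known, so the shares of 4.76% cannot show an excess. Without the genes chosen in this way, only BCL2 and ANGPT1 under this annotation had these patterns. In all 6 lists were 20 of the 42 (47.6%), against 45.6% of annotated genes. EPAS1 and CA12 are not under this annotation.

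Of the 13 other carbonic anhydrase genes, 3 had a listed peak and none was in all lists of 1 group alone. Of all genes with a peak, 2.75% were in all si-NC lists alone and 2.28% in all si-FTO lists alone. At least 2 si-NC lists and no si-FTO list held 6.53% of all genes, and 3 genes are too few to set beside these shares. Named after their values were seen, CA13 was in si-NC replicates 1 and 3 but in no si-FTO list, CA2 in 2 si-NC and 1 si-FTO lists, and CA5B in 3 si-NC and 2 si-FTO lists.

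Promoter windows of these genes were searched on both strands for ACGTG, a form of the core of the DNA element bound by the HIF dimers. Other forms of the core were not searched, so a window without ACGTG may still hold one. The windows, from RefSeq on GRCh38.p14 and not on the build of the peak lists, run from 250 bases before to 50 bases after a gene start, and 8 of the 9 genes had 1 or more, 10 windows in all. ACGTG was found in 1 window each of 3 genes, EGLN1, CA9 and EGLN2, out of the 10 windows. Of all 35116 windows, 21.4% held it. ACGTG is shown because it is a sequence that ARNT dimers read. The match is in capitals within the strand of the gene, where CACGT is ACGTG on the other strand. In EGLN2 the base after the capitals completes CACGTG, so ACGTG lies on both strands there.
EGLN1, chr1:231422284-231422312, minus strand: gggccgtggtgtACGTGcagagcgcgcag
CA9, chr9:35673898-35673926, plus strand: tcgtttccaatgCACGTacagcccgtaca
EGLN2, chr19:40799130-40799158, plus strand: gcggggcgcggtCACGTgcccaccgggcg
The match began 13, 18 and 49 bases before the gene start in EGLN1, CA9 and EGLN2. These letters are a description and not a measured binding site, and the m6A lists do not measure the activity of a promoter.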

How the data were processed

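MeRIP-seq libraries of K1 cells were sequenced as paired ends, and the authors deposited the peaks of each IP over its input as a separate list in hg19 positions. Peak identifiers carry the name of MACS, and CASAVA 1.8 and BWA come from the submitters' processing notes; no source used here states the settings of the peak caller. The values that the authors deposited are a score, 10 times the negative log10 of the p-value and at least 50 in these lists, a fold enrichment, which is a ratio of IP over input, and an FDR in percent. The lists also hold the peak length. The depth is unknown. Each list has 1 emptied line, which was not analysed here.

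Groups were taken from the sample titles. Starts were converted to count from 1, peaks of a gene were merged over the 6 lists with at least 1 bp of overlap, and percentiles were computed within a list, with Python 3.11.15 and pandas 2.3.3. Figures were drawn with matplotlib 3.10.9. The counting was tested on simulated data. The 9 genes and the lists of regulators, targets and markers were chosen with earlier results of these data known. The named genes are the 9 genes, members of the pathway lists in all lists of 1 group alone, up to 4 for each direction, and the 2 genes most like each of EPAS1, VHL, CA12 and ARNT. Others were named after their values were seen and are marked. The alternatives were the upper 75 percent of fold enrichment, lists of 7921 peaks each, leaving out each library, at least 2 of 3 libraries, an overlap of 50 bp, and merging peaks of all gene names. The place of peaks relative to exons and the stop codon was not analysed here.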

Additional observations from a re-analysis of the deposited data

How the results depend on the processing

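EPAS1, VHL and CA12 remained listed in si-NC alone, and ARNT in si-FTO alone, in lists of equal length. These genes could not lose this pattern with at least 2 of 3 libraries or without any 1 library. Those settings therefore do not test it. In the upper 75 percent of fold enrichment, the 3 genes of the si-NC lists alone became 1, CA12, and their regions fell from 2 to 1. EGLN1 took the place of ARNT as the gene of the si-FTO lists alone, since its si-NC peaks and the ARNT peak of si-FTO replicate 3 stood in the 25 percent left out, and 0 genes were left in all 6 lists. In the same setting the target genes in 1 group alone rose from 1 to 2, CTGF and STC2, and the other carbonic anhydrases from 0 to 1, CA5B. With at least 2 of 3 libraries, the target genes were 7, the other carbonic anhydrases 1, and all genes 498 in si-NC and 374 in si-FTO alone, as the looser rule admits more.

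Leaving out 1 library gave 1 to 4 target genes in 1 group alone, with 3, 4 and 3 without si-NC replicates 1, 2 and 3 and 3 without si-FTO replicate 3. It gave 0 to 1 regulators (USP33 without si-NC replicate 1) and 0 to 1 other carbonic anhydrases (CA13 without si-NC replicate 2). Over all genes it gave 275 to 329 in si-NC alone, 329 without si-NC replicate 1, and 222 to 251 in si-FTO alone. At equal list length all genes were 178 in si-NC and 196 in si-FTO alone, so that their order turned. For the listing of single genes, the rule of 2 of 3 libraries gives no value. No paired analysis was possible because the results are counts of lists and within-list ranks that come from no test. The groups share their replicate numbers, but nothing states that a number marks a shared culture or day.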
